A study of Arabidopsis thaliana with 18 samples.

Results

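Genes of the organelle protease and chaperonin families were taken by symbol: FTSH, CLP plus a letter, DEG, LON or CPN, each followed by a digit. The rule used no measured value and found 36 of 25177 genes, with 12 CLP, 11 DEG, 5 FTSH, 4 LON and 4 CPN genes. Known roles place 27 of them in plastids or mitochondria. Of the others, LON2 and DEG15 are peroxisomal, DEG9 is nuclear, CLPS3 and CLPS5 belong to an mRNA 3′-end processing family that shares letters with the Clp protease, and 4 were not assigned. The set therefore holds its name in most members but not in all. The rule also passes over relatives listed under other symbols, such as VAR1 (FTSH5), VAR2 (FTSH2) and the mitochondrial HSP60 genes, which are given separately.

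RNA was sequenced from Arabidopsis thaliana seedling roots in 18 libraries, 3 from each of 6 genotypes. These were the wild type Col-0 (WT), the single mutants rab8d-2, gun1-101 and nac103-11, and 2 double mutants, gun1-101 rab8d-2 as well as nac103-11 rab8d-2. The rab8d-2 allele reduces the function of EF-Tu of plastids, the elongation factor that brings aminoacyl-tRNA to the ribosome. GUN1 acts inside plastids in signalling to the nucleus, and NAC103 belongs to the NAC family of transcription factors; the series title calls both mutants knockouts. The study asks how each of them bears on roots of rab8d-2. All seedlings grew on diluted Murashige and Skoog medium with 1% sucrose under 16 h light and 8 h dark, after about 3 days in the cold. Their age is 4 days in the titles and 3 days in the series design. The titles call the 3 libraries of a genotype biological replicates, with no word on separate plates or on how many seedlings were pooled, so p-values measure the spread between these libraries, which may be technical.

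Total counts were 22625981 to 23090995 per library, of which the 36 genes took 0.177% to 0.305%. RABE1b, the table's symbol for RAB8D, had 86.0 to 176 CPM (counts scaled to a common library size, with TMM factors) in the 9 libraries without rab8d-2 and 5.88 to 18.9 CPM in the 9 with it. GUN1 had 79.6 ± 11.7 CPM in gun1-101 against 147 ± 16.7 in WT (SD, n = 3), and NAC103 had 0.136 ± 0.0507 in nac103-11 against 1.07 ± 0.797, so some RNA of both remained and neither difference passed. GUN1 had 54.1 ± 5.57 CPM in gun1-101 rab8d-2 against 108 ± 14.7 in rab8d-2, which passed. For NAC103 the libraries of nac103-11 rab8d-2 had 8.35, 3.25 and 7.12 CPM and those of rab8d-2 17.7, 29.7 and 11.4 CPM, a difference of log2 -1.65 ± 0.45 that did not pass (adjusted p = 0.0610). The libraries labelled nac103-11 rab8d-2 held more NAC103 RNA than any WT library. The labels do not place the nac103-11 lesion, and the RNA level does not check the label of these libraries, on which every statement about that double mutant rests. Root tip and meristem markers (PLT1, PLT2, WOX5, SHR, SCR and SMB) were detected in every library. In WT and in nac103-11 rab8d-2, replicate 3 lay far from the other replicates, and these are called the libraries that stand apart. Replicates 1 and 2 of gun1-101 rab8d-2 were closer to each other than any other pair but differed by more than sampling noise, and were kept as 2 libraries.

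Proteins of plastids and mitochondria are kept in balance by ATP-dependent proteases and by chaperones that fold imported polypeptides. FtsH proteases are membrane-bound hexamers, and in thylakoids they take apart damaged photosystem proteins together with Deg proteases. The Clp protease of the stroma is a barrel of ClpP and ClpR subunits fed by the unfoldase ClpC, while Lon proteases clear damaged proteins from the mitochondrial matrix. Chaperonins are barrels (Cpn60 in plastids, Hsp60 in mitochondria) closed by small lids (Cpn20 and Cpn10). In roots these plastids are mostly non-green.

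Levels per transcript length ran over a wide range. CPN10, the lid of mitochondrial Hsp60, was highest in WT at 347 ± 34.1 TPM (a level per transcript length, SD, n = 3). It was followed by CPN20, the plastid lid, at 284 ± 63.4 TPM and by CPN60A, the alpha subunit of the plastid chaperonin, at 133 ± 50.1 TPM. CPN10 and CPN20 were closer than their spread allows to order. The core subunits of stromal Clp lay between 21.0 TPM (CLPP3) and 49.7 TPM (CLPP4). Of the thylakoid FtsH genes, 2 were well detected, with 12.2 ± 2.71 TPM for FTSH1 and 9.43 ± 2.35 TPM for FTSH8. Below 1 TPM in WT were 7 genes: CLPS5, CLPB2, DEG11, DEG16, FTSH6, LON3 and LON4. All of these except LON4 failed the filter on low counts, with 3 to 92 counts over the 18 libraries, so 30 genes were tested.

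**Figure D1:**
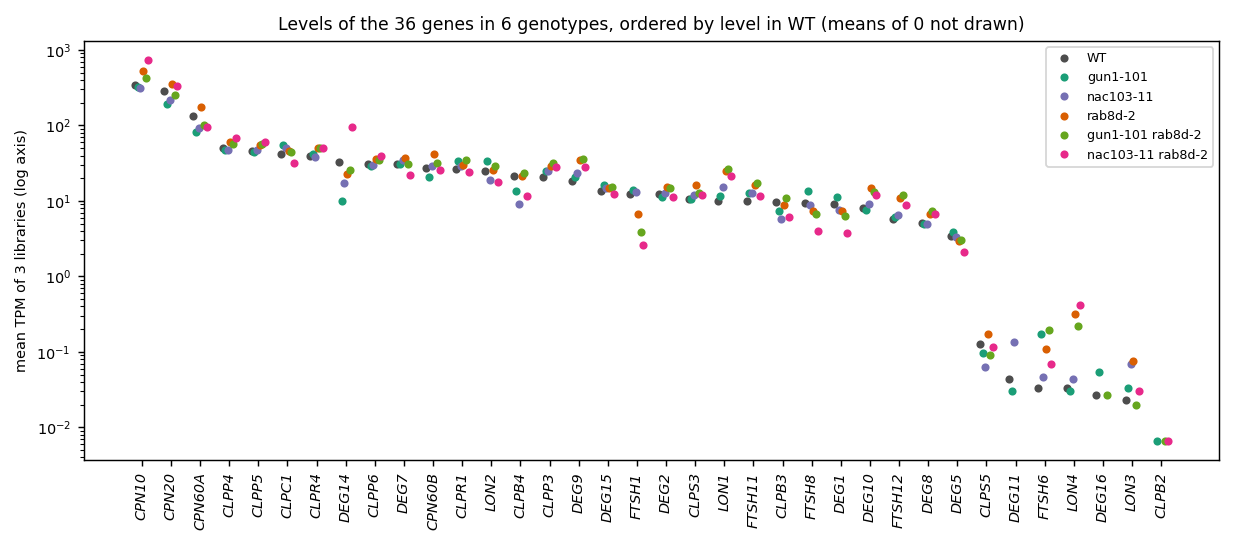
Mean TPM of the 3 libraries of each genotype (log axis) for the 36 genes, ordered by level in WT, with genotypes as colours. CPN10, CPN20 and CPN60A lead, and 7 genes lie below 1 TPM in WT. FTSH1 and LON4 separate the genotypes with rab8d-2 from those without it. By mean CPM other genes also do, among them FTSH8, DEG1, LON1 and DEG10.

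FTSH1 (AT1G50250), a type A subunit of the thylakoid FtsH complex, fell with rab8d-2 in all 3 backgrounds. Its level was 26.9, 45.8 and 34.6 CPM in the WT libraries and 20.9, 9.003 and 19.2 CPM in rab8d-2. It was 37.2, 34.4 and 38.2 CPM in gun1-101 and 8.90, 8.80 and 8.75 CPM in gun1-101 rab8d-2. It was 30.5, 39.8 and 35.4 CPM in nac103-11 and 6.17, 6.38 and 8.94 CPM in nac103-11 rab8d-2. All 9 libraries with rab8d-2 were thus below all 9 without it, a separation found in either direction for 6.93% of all genes. The log2 fold change was -1.13 ± 0.27 (SE; adjusted p = 0.0171) against WT, -2.05 ± 0.27 against gun1-101 (adjusted p = 0.000166) and -2.30 ± 0.28 against nac103-11 (adjusted p = 0.000119). These and all adjusted p-values are from edgeR's quasi-likelihood test over 21004 genes, called below 0.05. The mean in nac103-11 rab8d-2 was 20.3% of that in nac103-11, and the mean in rab8d-2 was 45.8% of that in WT. The difference between those effects did not pass, at log2 -1.18 ± 0.38 for the interaction with nac103-11 (adjusted p = 0.198) and -0.93 ± 0.37 for that with gun1-101 (adjusted p = 0.388). The call in rab8d-2 against WT ended without WT replicate 2 (log2 -0.90) and without rab8d-2 replicate 2 (log2 -0.83). With the 6 libraries of that contrast alone, none of its 4 calls held, at log2 -1.10 for FTSH1 (adjusted p = 0.166), 1.11 for LON1 (0.121), 3.13 for LON4 (0.0845) and 0.62 for DEG10 (0.197). In bulk RNA, fewer cells of a type and less RNA per cell cannot be told apart.

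FTSH8 (AT1G06430), a type B subunit of that complex, had 17.7, 29.9 and 26.3 CPM in WT and 17.5, 9.69 and 20.3 CPM in rab8d-2, which overlap. It had 33.8, 28.7 and 32.4 CPM in gun1-101 against 13.0, 11.6 and 16.6 CPM in gun1-101 rab8d-2. It had 19.0, 23.63 and 22.2 CPM in nac103-11 against 7.75, 11.6 and 9.94 CPM in nac103-11 rab8d-2. In both double mutants all libraries were below those of the single parent, beside 64.2% (gun1-101) and 40.8% (nac103-11) of all genes not overlapping. The log2 fold change was -1.20 ± 0.26 (adjusted p = 0.00379) with gun1-101 and -1.15 ± 0.26 (adjusted p = 0.00531) with nac103-11, while -0.64 ± 0.26 against WT did not pass (adjusted p = 0.113).

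The paralogs that the symbol rule leaves out moved with these genes. VAR2, the main type B subunit of green tissue, had 64.4 to 107 CPM in WT and 38.7 to 59.0 CPM in rab8d-2, and fell in all 3 backgrounds (log2 -0.71 ± 0.20, -1.23 ± 0.20 and -1.36 ± 0.21). VAR1, its type A partner, fell in both double mutants against their parents (log2 -1.34 ± 0.24 and -1.41 ± 0.24), and -0.66 ± 0.23 in rab8d-2 against WT did not pass. Counts of FTSH1 were not whole numbers in any library and those of FTSH8 in 5, as happens where reads are shared between genes. Those of CLPP6, CLPR1, CPN60B, DEG5 and DEG7 were not whole in any library either. Which genes shared reads was not examined, so the split between FTSH1 and VAR1 cannot be checked and stays uncertain.

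Among the Deg proteases of thylakoids, DEG1 (AT3G27925), a serine protease of the lumen side, moved the same way. DEG1 had 11.3, 15.3 and 20.1 CPM in WT against 10.08, 8.00 and 14.3 CPM in rab8d-2. In gun1-101 it had 17.01, 18.7 and 18.4 CPM against 7.76, 7.20 and 11.3 CPM in gun1-101 rab8d-2. In nac103-11 it had 10.9, 11.9 and 13.9 CPM against 5.14, 7.77 and 5.75 CPM in nac103-11 rab8d-2. The libraries overlapped against WT. They did not overlap in the double mutants, as was so for 64.2% (gun1-101) and 40.8% (nac103-11) of all genes. DEG1 fell with gun1-101 (log2 -1.04 ± 0.26, adjusted p = 0.00870) and with nac103-11 (log2 -0.98 ± 0.26, adjusted p = 0.0128), the latter not called without nac103-11 replicate 3 (log2 -0.85). Against WT, -0.53 ± 0.26 did not pass.

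DEG5 and DEG8 encode partner subunits of a lumenal Deg complex, and they went opposite ways in the average over the 3 backgrounds. DEG5 had 3.72 to 6.45 CPM in the libraries without rab8d-2 and 2.19 to 4.19 CPM in those with it (average log2 -0.54 ± 0.15, adjusted p = 0.00787). DEG8 had 7.24 to 10.2 CPM without and 9.02 to 12.1 CPM with rab8d-2 (average log2 0.31 ± 0.09, adjusted p = 0.0105). Neither passed in any single background, and their ranges overlap. DEG7, a Deg protease of the stromal side, had 123, 139.9 and 142 CPM in nac103-11 and 84.4, 87.8 and 84.4 CPM in nac103-11 rab8d-2, a fall of log2 -0.66 ± 0.13 (adjusted p = 0.00189). In rab8d-2 against WT its log2 fold change was 0.00 ± 0.13. DEG2, which acts on the stromal face, stayed between 21.7 and 36.7 CPM and passed in none of the 10 contrasts.

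**Figure D2:**
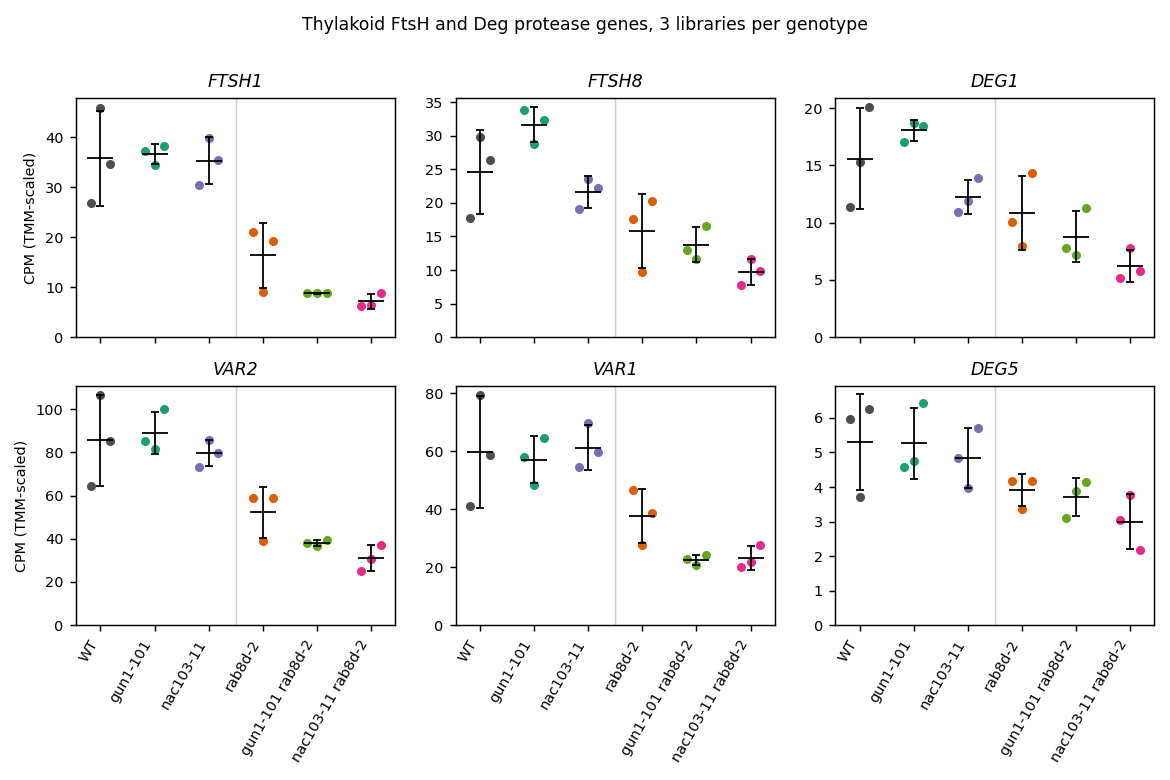
TMM-scaled CPM per library (points), with mean and SD of 3 libraries, for 4 thylakoid FtsH genes and for DEG1 and DEG5 in the 6 genotypes; genotypes with rab8d-2 are right of the grey line. For FTSH1 and VAR2 every library with rab8d-2 is below every library without it, and for the other 4 genes the ranges overlap. Such a separation, in either direction, was found for 6.93% of all genes.

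Markers of other tissue moved in the same comparisons. Of 5 shoot and leaf markers (CAB2, LHCB2.1, LHCA1, RBCS1A and RCA), 4 fell in the average effect, where 24.5% of all genes fell. Beside 7.50%, 15.6% and 14.3% of all genes, 0, 1 (RCA) and 0 of these markers fell in the WT, gun1-101 and nac103-11 backgrounds. Their summed level was 127 to 459 TPM in WT, 40.6 to 608 in rab8d-2, 151 to 179 in gun1-101, 31.5 to 75.4 in gun1-101 rab8d-2, 34.6 to 184 in nac103-11 and 5.75 to 54.0 in nac103-11 rab8d-2. CAB2 was at 0 counts in 1 library of each double mutant, and LHCB2.1 in WT replicate 1. Differentiated root markers (CASP1, EXPA7, SHV2 and IRX3) fell in 4 of 4 in rab8d-2 against WT, beside 7.50% of all genes. Their sum was 268 to 468 TPM in WT and 38.3 to 128 TPM in rab8d-2. Of all genes 4.80%, 12.6% and 14.7% rose in the WT, gun1-101 and nac103-11 backgrounds. Of the 6 root tip markers, PLT2 rose in rab8d-2 against WT, PLT1, PLT2 and WOX5 rose with gun1-101, and WOX5 rose and SCR fell with nac103-11. Their summed level was 57.0 to 68.3 TPM in WT, 69.0 to 101 in rab8d-2, 48.9 to 58.5 in gun1-101, 79.8 to 88.5 in gun1-101 rab8d-2, 63.1 to 67.7 in nac103-11 and 42.9 to 79.2 in nac103-11 rab8d-2. The part of these 3 marker lists in the changes of the protease and chaperonin genes was not tested.

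**Figure D3:**
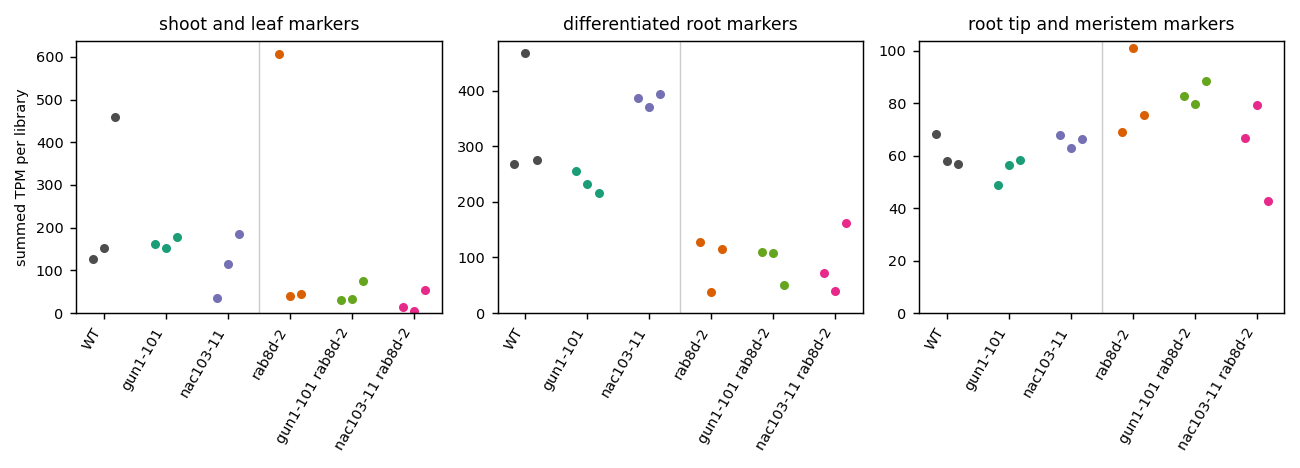
Summed TPM per library of 5 shoot and leaf markers, 4 differentiated root markers and 6 root tip and meristem markers in the 6 genotypes. The leaf sum is highest in rab8d-2 replicate 1 (608 TPM) and WT replicate 3 (459 TPM), and the differentiated root sum is lower in all libraries with rab8d-2.

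Of the 3 tested Lon genes 2 rose in the WT background, 2 in the gun1-101 and 1 in the nac103-11 background. Of all genes 4.80%, 12.6% and 14.7% rose there. LON1 (AT5G26860), the main Lon of the mitochondrial matrix, had 37.1, 29.0 and 48.4 CPM in WT and 60.5, 107 and 75.5 CPM in rab8d-2. It had 43.5, 37.8 and 39.6 CPM in gun1-101 and 89.9, 84.4 and 68.0 CPM in gun1-101 rab8d-2. It had 59.3, 55.8 and 46.9 CPM in nac103-11 and 87.8, 85.5 and 46.9 CPM in nac103-11 rab8d-2, where replicate 3 was at the level of the parent. LON1 rose in rab8d-2 (log2 1.09 ± 0.26, adjusted p = 0.0173) and in gun1-101 rab8d-2 (log2 1.00 ± 0.26, adjusted p = 0.0101), while 0.44 ± 0.25 in nac103-11 rab8d-2 did not pass (adjusted p = 0.205). The call against WT ended without WT replicate 2 (log2 0.94) and without rab8d-2 replicate 2 (log2 0.83). Without nac103-11 rab8d-2 replicate 3 and WT replicate 3, LON1 was called in all 3 backgrounds, at log2 1.32, 0.97 and 0.67.

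LON4 (AT3G05790), a Lon described in mitochondria and plastids, was close to silent without rab8d-2. Its counts summed to 6 in WT, 6 in gun1-101 and 8 in nac103-11, against 64 in rab8d-2, 43 in gun1-101 rab8d-2 and 85 in nac103-11 rab8d-2. The 9 libraries without the allele had 0.0437 to 0.174 CPM and the 9 with it 0.314 to 1.51 CPM. They did not overlap, as was so for 6.93% of all genes. The rise was called in each background, at log2 3.11 ± 0.60, 2.57 ± 0.61 and 3.28 ± 0.57 (adjusted p = 0.00736, 0.00622 and 0.00113). These values rest on few counts, and on log2(TPM + 1) the changes were 0.35 and 0.23 in the WT and gun1-101 backgrounds and were not called. LON2, the peroxisomal Lon, had 50.1 to 116 CPM and passed in no contrast. LON3 had 47 counts over all libraries.

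Among mitochondrial Deg proteases, DEG10 (AT5G36950) had 19.0, 18.3 and 16.6 CPM in WT and 22.3, 34.7 and 24.5 CPM in rab8d-2. It had 14.6, 16.1 and 14.9 CPM in gun1-101 and 22.4, 21.4 and 23.8 CPM in gun1-101 rab8d-2. It had 18.1, 19.3 and 19.1 CPM in nac103-11 and 27.6, 24.8 and 19.5 CPM in nac103-11 rab8d-2. The 9 libraries with the allele were above the 9 without, by a margin of 19.5 against 19.3 CPM. Libraries with and without it did not overlap for 6.93% of all genes. DEG10 rose against WT (log2 0.60 ± 0.17, adjusted p = 0.0338) and against gun1-101 (log2 0.57 ± 0.17, adjusted p = 0.0201). The first call ended without WT replicate 1, 2 or 3 or rab8d-2 replicate 2 (log2 0.38 to 0.65). The second ended without gun1-101 replicate 1 or 3 or gun1-101 rab8d-2 replicate 1 or 3 (log2 0.53 to 0.58).

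DEG14 (AT5G27660), a mitochondrial Deg, depended on 1 library. It had 32.9, 31.3 and 38.4 CPM in nac103-11 and 60.6, 89.9 and 528 CPM in nac103-11 rab8d-2. The rise of log2 2.72 ± 0.68 (adjusted p = 0.00881) fell to 1.13 without nac103-11 rab8d-2 replicate 3 and was then not called (adjusted p = 0.0656). In rab8d-2 it had 53.2, 35.4 and 34.2 CPM against 73.3, 107 and 34.4 CPM in WT, at log2 -0.81 ± 0.64, which did not pass (adjusted p = 0.409). Without the 2 libraries that stand apart it was lower there by log2 -1.11 and called. Its level in gun1-101 ran from 8.25 to 28.5 CPM, and neither DEG14 interaction passed. DEG14 in the average effect (log2 1.02 ± 0.37, adjusted p = 0.0329) lost its call when any 1 of 9 libraries was left out: WT replicate 3, gun1-101 replicate 1 or 3, nac103-11 replicate 1 or 2, rab8d-2 replicate 1, gun1-101 rab8d-2 replicate 2 or 3, or nac103-11 rab8d-2 replicate 3, the last with log2 0.49. Without the 2 libraries that stand apart, the interaction with gun1-101 passed (log2 2.24 ± 0.51, adjusted p = 0.035), where 3.53% of all genes were called.

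**Figure D4:**
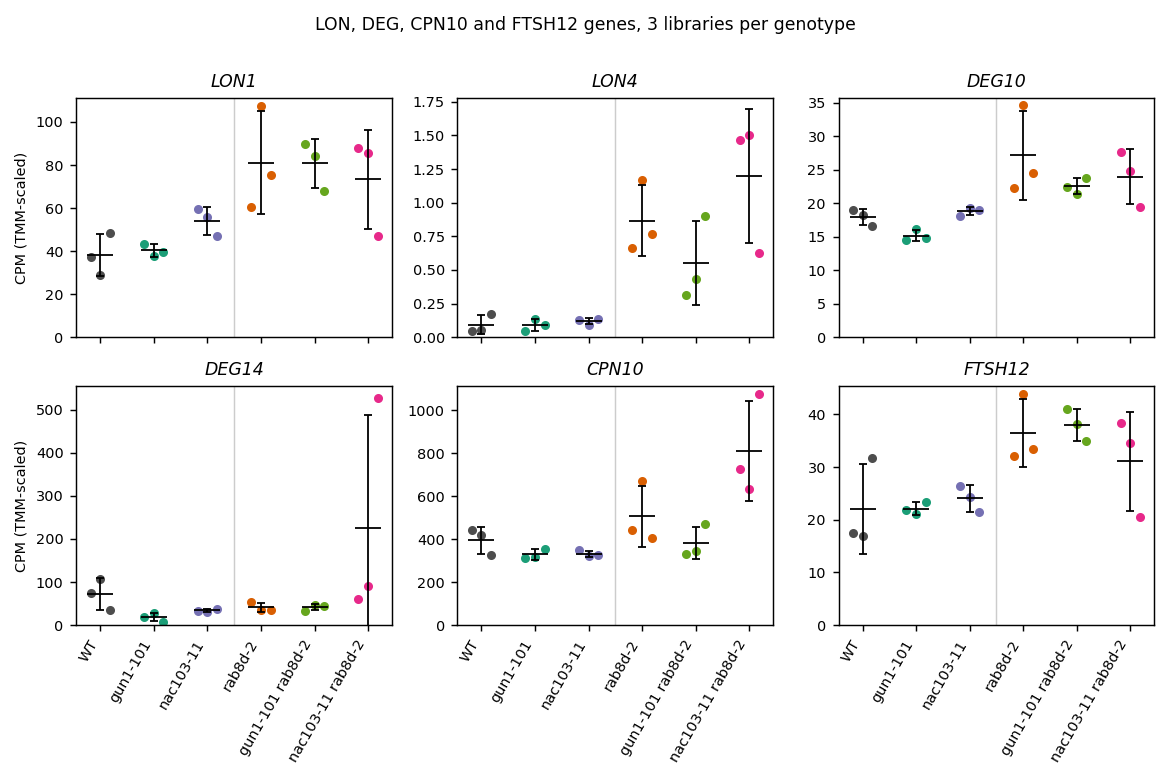
TMM-scaled CPM per library (points), with mean and SD of 3 libraries, for LON1, LON4, DEG10, DEG14, CPN10 and FTSH12 in the 6 genotypes; genotypes with rab8d-2 are right of the grey line. LON4 and DEG10 are higher in all 9 libraries with rab8d-2, and the mean of DEG14 in nac103-11 rab8d-2 rests on replicate 3 at 528 CPM. Of all genes 6.93% had no overlap between libraries with and without the allele.

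Of the 4 chaperonin genes 2 rose with rab8d-2 in the nac103-11 background, where 14.7% of all genes rose, and 0 in the WT and gun1-101 backgrounds, where 4.80% and 12.6% did. CPN10 (AT1G14980) had 349, 322 and 327 CPM in nac103-11 and 726, 632 and 1075 CPM in nac103-11 rab8d-2. That is log2 1.29 ± 0.24 (adjusted p = 0.00154), and the rise was kept without each single library. In rab8d-2 it had 441, 670.0 and 406 CPM against 441, 421 and 324 in WT (log2 0.35 ± 0.23), and in gun1-101 rab8d-2 330.0, 345 and 468 CPM against 314, 316 and 356 in gun1-101 (log2 0.21 ± 0.23), and neither passed. The interaction with nac103-11 was 0.93 ± 0.33 and did not pass (adjusted p = 0.221).

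CPN20 (AT5G20720) had 210.2, 216 and 237 CPM in nac103-11 and 325, 297 and 399 CPM in nac103-11 rab8d-2, a rise of log2 0.62 ± 0.16 (adjusted p = 0.0103). In WT it had 302, 278 and 345 CPM, and in rab8d-2 348, 361 and 267 CPM, and the libraries of nac103-11 rab8d-2 overlap both. CPN60A and CPN60B, the barrel subunits, were called with rab8d-2 in no background. CPN60A (AT2G28000) had 388, 393 and 331 CPM in rab8d-2 and 216, 211 and 177 CPM in gun1-101 rab8d-2, a fall of log2 -0.88 ± 0.19 (adjusted p = 0.0202). Its level in gun1-101, 161, 173 and 213 CPM, was also below the 271 to 426 CPM of WT, at log2 -0.84 ± 0.19, which did not pass among all genes (adjusted p = 0.311). The call against rab8d-2 ended without rab8d-2 replicate 1 (log2 -0.85) and without each gun1-101 rab8d-2 library (log2 -0.94 to -0.80).

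Of the 10 tested CLP genes 0 passed in the WT and gun1-101 backgrounds. At an unadjusted p under 0.05 it was also 0 in each, against 30.4% and 41.1% of all genes, and their median log2 fold change was -0.01 and 0.07. In nac103-11 rab8d-2 4 core subunits rose and CLPC1, the stromal unfoldase, fell, 5 of 10 beside 29.0% of all genes called. CLPP4 had 64.1, 65.1 and 68.5 CPM in nac103-11 and 77.6, 89.6 and 121 CPM in the double mutant (log2 0.54 ± 0.16). CLPP6 rose from 38.0, 39.5 and 39.6 to 47.2, 48.0 and 64.8 CPM (log2 0.45 ± 0.14). CLPR4, a ClpR subunit with no catalytic site, rose from 66.7, 61.1 and 71.4 to 82.7, 90.7 and 85.2 CPM (log2 0.38 ± 0.13). CLPP5 rose from 73.2, 73.9 and 70.6 to 85.5, 83.4 and 112 CPM (log2 0.37 ± 0.13). CLPC1 had 171, 196 and 189 CPM against 110.3, 149 and 78.6 CPM (log2 -0.72 ± 0.25, adjusted p = 0.0444). In all 5 genes the libraries of the double mutant did not overlap those of nac103-11, as was so for 40.8% of all genes.

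These 5 calls were weak. Adjusted p was 0.0189 for CLPP4, 0.0275 for CLPP6, 0.0399 for CLPR4 and 0.0475 for CLPP5. Without nac103-11 rab8d-2 replicate 3 none of the 5 was called, at log2 0.33, 0.28, 0.37, 0.21 and -0.52 for CLPP4, CLPP6, CLPR4, CLPP5 and CLPC1. Each also ended without at least 2 of the nac103-11 libraries, at log2 0.33 to 0.54 for the core subunits and -0.77 to -0.66 for CLPC1.

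The promoters of the 4 rising core subunits are printed because each holds the letters TGGGCC, known as a site II element of genes for organelle and ribosome biogenesis. Each is the 250 bases before the RefSeq gene start (TAIR10.1), 5′ to 3′ on the gene's strand, with TGGGCC or its reverse complement GGCCCA in capitals. CLPP4 is at chr5:18396004-18396253 (+), CLPP5 at chr1:537490-537739 (+), CLPP6 at chr1:3967226-3967475 (+) and CLPR4 at chr4:9589377-9589626 (-).
CLPP4: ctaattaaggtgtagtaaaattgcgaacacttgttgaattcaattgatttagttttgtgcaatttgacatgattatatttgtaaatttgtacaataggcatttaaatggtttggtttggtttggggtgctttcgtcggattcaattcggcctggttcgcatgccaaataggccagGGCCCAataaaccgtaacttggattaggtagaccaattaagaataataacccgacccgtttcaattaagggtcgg
CLPP5: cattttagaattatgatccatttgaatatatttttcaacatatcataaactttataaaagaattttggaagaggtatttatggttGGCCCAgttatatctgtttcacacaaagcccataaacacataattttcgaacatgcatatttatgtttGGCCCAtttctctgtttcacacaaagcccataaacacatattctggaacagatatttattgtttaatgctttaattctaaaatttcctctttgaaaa
CLPP6: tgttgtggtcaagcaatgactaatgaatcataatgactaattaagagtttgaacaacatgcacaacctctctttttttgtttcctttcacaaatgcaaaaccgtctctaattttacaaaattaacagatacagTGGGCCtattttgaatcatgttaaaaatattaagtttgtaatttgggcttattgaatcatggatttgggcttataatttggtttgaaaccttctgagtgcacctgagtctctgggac
CLPR4: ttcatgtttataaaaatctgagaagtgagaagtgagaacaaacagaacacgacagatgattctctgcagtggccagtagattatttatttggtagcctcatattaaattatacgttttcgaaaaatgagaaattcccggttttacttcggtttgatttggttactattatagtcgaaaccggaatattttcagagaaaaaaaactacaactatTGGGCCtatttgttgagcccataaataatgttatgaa
Counted from the gene start, the match begins at -75 in CLPP4, at 2 places in CLPP5, at -117 in CLPP6 and at -37 in CLPR4. TGGGCC was searched after these values were seen, on both strands, and is in 9 of the 36 promoters (25%) against 14.5% of 25176 promoters. The other 5 are CPN60A, CPN60B, DEG16, DEG2 and LON4. Of these, LON4 was called higher in all 3 backgrounds and DEG16 was not tested. CPN60A, CPN60B and DEG2 were called with rab8d-2 in no background, so the letters are not limited to genes called higher. Of 3 motifs set with the gene lists, the heat shock element and the mitochondrial dysfunction motif matched in 0 of 36 (0.389% and 0.707% of all), and the G-box CACGTG in CLPB3, CLPC1 and DEG5 (8.33%, against 6.87% of all). The I-box GATAAG, also added later, was in 5 of 36 (13.9%, against 12.3% of all). In DEG2, the promoter with both TGGGCC and GATAAG, the matches do not overlap. A match is a string in this window, not a site.

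The remaining called genes are FTSH12, DEG9 and DEG15. FTSH12, a FtsH of the plastid envelope that takes part in protein import, had 21.9, 21.1 and 23.4 CPM in gun1-101 and 41.0, 38.1 and 34.9 CPM in gun1-101 rab8d-2, a rise of log2 0.78 ± 0.25 (adjusted p = 0.0312). WT had 17.5, 16.9 and 31.8 CPM against 32.2, 43.9 and 33.4 in rab8d-2 (log2 0.73 ± 0.25, adjusted p = 0.0686), and nac103-11 had 26.4, 24.4 and 21.4 against 38.3, 34.7 and 20.4 in its double mutant. The gun1-101 call ended without each gun1-101 library and without gun1-101 rab8d-2 replicate 1 or 2 (log2 0.72 to 0.82), while the average over backgrounds (log2 0.63 ± 0.14, adjusted p = 0.00243) was kept without each single library. DEG9 was called in that average (log2 0.48 ± 0.14, adjusted p = 0.009), with 37.6 to 62.9 CPM without rab8d-2 and 39.1 to 92.3 CPM with it. DEG15, a peroxisomal processing protease, was lower by log2 -0.23 ± 0.07 (adjusted p = 0.00974), with 39.3 to 46.3 CPM without and 31.1 to 40.4 CPM with the allele.

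CLPB3 and CLPB4, unfoldases of plastids and mitochondria that respond to heat, were not called in any contrast of the 18 libraries. WT replicate 3 was far above the other WT libraries in both, at 72.6 against 13.0 and 12.4 CPM for CLPB3 and 182 against 19.8 and 20.9 CPM for CLPB4. With that library and nac103-11 rab8d-2 replicate 3 left out, both rose in rab8d-2 against WT (log2 1.11 and 1.78). HSP101, a cytosolic relative, was at 1027 CPM in WT replicate 3 against 14.8 and 24.3 CPM.

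Over the 30 tested genes, 3 rose and 1 fell in rab8d-2 against WT, where 12.3% of all genes were called (4.80% higher, 7.50% lower). In gun1-101 rab8d-2 against gun1-101 4 rose and 3 fell, with 28.3% of all genes called (12.6% and 15.6%). In nac103-11 rab8d-2 against nac103-11 8 rose and 5 fell, with 29.0% called (14.7% and 14.3%). In the effect averaged over the backgrounds 9 rose and 7 fell, with 51.6% called (27.1% and 24.5%). Except in the nac103-11 background, where more members were called, these shares are near the background. Of the calls in the nac103-11 background, 6 held with that contrast's libraries alone and 7 without nac103-11 rab8d-2 replicate 3. Without the 2 libraries that stand apart, 41.0% of all genes were called there. The median log2 fold change of the 30 genes was 0.04, 0.16, 0.10 and 0.17, beside 0.01, 0.05, 0.09 and 0.07 over all genes. FTSH1 and LON4 were the 2 genes called in all 3 backgrounds. Of the 30, 14 had a positive and 8 a negative change in each background. The share of all genes called, or of the same sign, in all 3 backgrounds was not counted. These member counts are therefore not read as particular to the set. The 9 libraries with the allele and the 9 without did not overlap for 3 (FTSH1, DEG10 and LON4), against 6.93% of all genes. Within the WT, gun1-101 and nac103-11 backgrounds, 28.4%, 64.2% and 40.8% of all genes had libraries that did not overlap.

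By place, 5 of 7 tested thylakoid proteases fell in the average (FTSH1, FTSH8, DEG1, DEG5 and DEG7) and 1 rose (DEG8), at a median of -0.54, beside 27.1% of all genes higher and 24.5% lower. Of 5 mitochondrial genes 4 rose (LON1, DEG10, DEG14 and CPN10) and 0 fell, at a median of 0.62, with LON4 of both organelles rising too. The DEG14 call was the one lost in 9 leave-outs, with log2 -0.81 in the WT background. Of 11 stromal genes CPN20 rose and CLPC1 fell, at a median of 0.16. By class the median was -0.41 for 4 FTSH, 0.16 for 10 CLP, 0.01 for 9 DEG, 0.84 for 3 LON and 0.24 for 4 CPN genes. With the 2 libraries that stand apart left out, 13 members rose and 7 fell in the average, with 64.9% of all genes called. The thylakoid genes called were the same 5 lower and DEG8 higher, and of the mitochondrial genes CLPB4 was called in place of DEG14. In the WT, gun1-101 and nac103-11 backgrounds 13, 12 and 13 members were then called, against 37.6%, 44.9% and 41.0% of all genes.

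**Figure D5:**
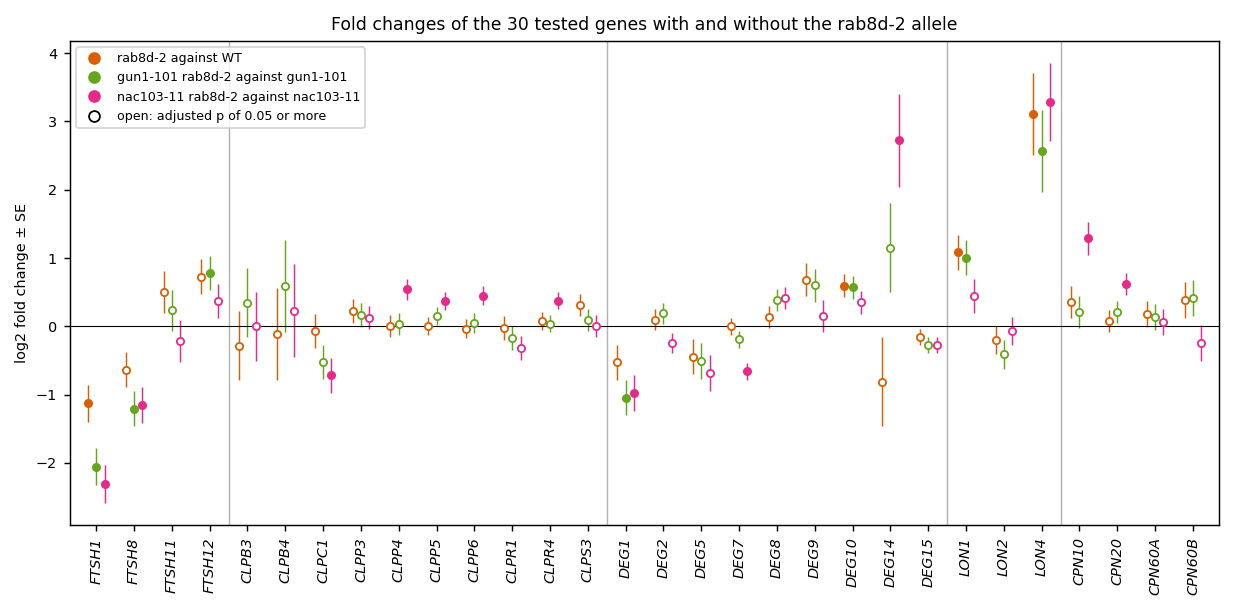
Log2 fold change with its SE for the 30 tested genes, rab8d-2 against the background without it, in the WT (orange), gun1-101 (green) and nac103-11 (pink) backgrounds; filled points passed at adjusted p below 0.05. FTSH1 is lowest and LON4 highest in each background, and no CLP gene has a filled point in the WT and gun1-101 backgrounds.

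Of 34 relatives under other symbols 9 rose and 7 fell in the average, at a median of 0.14, beside 27.1% of all genes higher and 24.5% lower. Both thylakoid genes (VAR1 and VAR2) fell. Of 10 mitochondrial genes the 3 HSP60 genes rose and CLPX, the unfoldase of mitochondrial Clp, fell (log2 -0.62 ± 0.14). HSP60-3A rose in all 3 backgrounds (log2 1.05 ± 0.23, 0.74 ± 0.23 and 0.72 ± 0.23), with 30.7 to 56.0 CPM without and 58.6 to 108 CPM with rab8d-2, and HSP60 and HSP60-2 rose in the average by 0.65 ± 0.13 and 0.48 ± 0.10. Of 14 stromal genes 5 rose and 3 fell, Cpn60alpha2 by 0.96 ± 0.22.

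Of 16 other organelle chaperones 8 rose and 0 fell in the average, at a median of 0.60, beside the same 27.1% and 24.5% of all genes. The change of HSP21, which has no count in nac103-11, is known there only as a lower bound. At that bound the median is also 0.60, since it does not respond to how far above it HSP21 lies. The mitochondrial prohibitin genes PHB1 (log2 0.87 ± 0.12), PHB4 (0.71 ± 0.15) and PHB2 (0.44 ± 0.09) rose, as did mtHsc70-1, the matrix Hsp70 (0.61 ± 0.10), and Hsp89.1, the mitochondrial Hsp90 (1.13 ± 0.28). HSP21, a plastid small heat shock protein, rose to 2.30 to 3.49 CPM in gun1-101 rab8d-2 and 0.237 to 3.69 CPM in nac103-11 rab8d-2, from at most 0.0439 CPM in either parent. In the WT background it was not called, with 0, 0.0538 and 0.739 CPM in WT and 0.456, 0.121 and 0.283 CPM in rab8d-2 (adjusted p = 0.980). Of 13 tested proteases of other families 2 rose (PREP2, log2 0.35 ± 0.10, and AT4G17740, 0.27 ± 0.11) and 1 fell (AT2G47390, -0.25 ± 0.08).

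The single mutants gave few differences. Against WT, 0 of 30 genes passed in gun1-101 (3 at an unadjusted p under 0.05). By the same edgeR test 0.0190% of all genes were called, with 7.09% at the unadjusted p. The DESeq2 Wald test called 2 of the 30, and its share of all genes is not given here. In nac103-11 0 passed (3 at an unadjusted p under 0.05, and 0 by DESeq2), with 0.00952% called and 6.49% at the unadjusted p. With the 2 libraries that stand apart left out, 9 passed in gun1-101 (18.6% of all genes) and 1 in nac103-11 (FTSH11, a plastid envelope protease, log2 0.74; 5.75% of all genes). Among those 9, CPN20 and CPN60A fell (log2 -0.55 each) and CLPC1 rose (log2 0.70).

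Set against rab8d-2, 1 of 30 genes passed in gun1-101 rab8d-2 (CPN60A, lower, with 4.18% of all genes called and 1.68% lower). With the libraries that stand apart left out it was 5, against 15.5% of all genes. In nac103-11 rab8d-2 FTSH1 (log2 -1.20 ± 0.27, adjusted p = 0.0359) and DEG7 (log2 -0.61 ± 0.13, adjusted p = 0.0277) were lower, with 2.54% of all genes called and 1.26% lower. The FTSH1 call ended without rab8d-2 replicate 1 or 3 or nac103-11 rab8d-2 replicate 1 or 2 (log2 -1.12 to -0.98), and the DEG7 call without rab8d-2 replicate 1 or 3 (log2 -0.61 and -0.60). Neither interaction called any of the 30 genes, with 2 and 7 at an unadjusted p under 0.05. Of all genes, edgeR called 0.195% and 0.00952% for the interaction with gun1-101 and with nac103-11. An unadjusted p under 0.05 was found for 10.0% and 15.9%. DESeq2 called 0 and 2 of the 30, and its share of all genes is not given here. In the 18-library edgeR fit the effects of rab8d-2 on these genes are thus not shown to differ between backgrounds. In other fits DEG14 was called for gun1-101 without the libraries that stand apart, and 2 genes for nac103-11 by DESeq2. With no share of all genes beside it, the DESeq2 count is not read as particular to these genes.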

How the data were processed

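Per the submitters' processing notes, reads were quantified with RSEM 1.3.1 on TAIR10. The authors deposited expected counts and TPM per library and gene; strandedness and read filters are not given in the sources used here. The 12 deposited mean columns were not used. Expected counts were rounded (19.6% of values were not whole).

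In R 4.3.3, edgeR 4.0.16 (filterByExpr, TMM factors 0.706 to 1.17, robust quasi-likelihood fit of 18 libraries with 1 term per genotype, common dispersion 0.104) tested 10 contrasts over 21004 genes, with Benjamini-Hochberg adjustment. The filter removed 4173 genes. The SE of a log2 fold change is its size over the root of F. The fit was tested on simulated data with 200 changed genes.

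The members, gene lists, tests and naming rule were chosen with earlier results of these data known. Members called with rab8d-2 are given per library in some or all backgrounds, except LON4, DEG5, DEG8, DEG9 and DEG15, which are given as ranges. Other members are given by level, with up to 6 called genes per related list. Gene IDs matched RefSeq for all 25177 genes; promoters are from TAIR10.1. DEG3, DEG4, DEG6, DEG12 and DEG13 were not analysed here.

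The alternatives tried were a Wald test in DESeq2 1.42.0, size factors of that tool in edgeR, limma 3.58.1 on log2(TPM + 1), no filter, the contrast's libraries alone, a replicate block and libraries left out. Depth was even, so counting error matters mainly for genes of few counts, such as LON4.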

Additional observations from a re-analysis of the deposited data

How the results depend on the processing

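None of the 43 calls of single members changed direction under the alternatives run. Of them, 27 kept their call without each single library and 20 under all alternatives run for their contrast. Among these were FTSH1, FTSH8 and DEG1 in the average effect. The average had no fit with the contrast's libraries alone, the alternative that kept none of the calls in rab8d-2 against WT. It also left out 1 library of 18 at a time. By contrast, the number of members called moved as follows. In rab8d-2 against WT (4 called) it was 0 with the 6 libraries alone, 13 without the 2 libraries that stand apart, and 1 to 8 leaving out 1 library each (1 without WT or rab8d-2 replicate 2, 8 without WT replicate 3). In gun1-101 rab8d-2 against gun1-101 (7) it was 13 with the libraries alone and 12 without those that stand apart. In nac103-11 rab8d-2 against nac103-11 (13) it was 6 with the libraries alone and 8 to 14 leaving out 1 library each (8 without each nac103-11 library). In gun1-101 against WT (0) it was 2 by the DESeq2 Wald test and 9 without the libraries that stand apart, and in nac103-11 against WT (0) 1 without them. In gun1-101 rab8d-2 against rab8d-2 (1) it was 4 by DESeq2, 5 without the libraries that stand apart, 0 with replicates 1 and 2 of gun1-101 rab8d-2 averaged, an alternative added after seeing the data, and 0 to 2 leaving out 1 library each (0 without rab8d-2 replicate 1 or any gun1-101 rab8d-2 library, 2 without rab8d-2 replicate 2). In nac103-11 rab8d-2 against rab8d-2 (2) it was 6 by DESeq2, 0 with the libraries alone, 0 with a replicate block and 0 to 4 leaving out 1 library each (0 without rab8d-2 replicate 1 or 3, 4 without replicate 2). For the interactions (0) it was 1 with gun1-101 without the libraries that stand apart and 2 with nac103-11 by DESeq2. Without the libraries that stand apart, more of all genes were called too. That share went from 12.3% to 37.6%, 28.3% to 44.9% and 29.0% to 41.0% in the WT, gun1-101 and nac103-11 backgrounds. For gun1-101 against WT it went from 0.0190% to 18.6%. Shares of all genes under the other alternatives are not given here, so those counts are not read as particular to the members. The causes were not tested.

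Replicate numbers did not pair the libraries: 15 of 45 same-numbered pairs correlated above 0.1 (-0.561 to 0.461), and 6 of 18 libraries correlated best with their own number. With the replicate block 4, 6, 11 and 15 members were called in the 3 backgrounds and the average. On log2(TPM + 1) the median of all genes shifted from 0.01 to 0.22 in rab8d-2 against WT and from 0.07 to 0.17 in the average, where DEG5 (-0.31), DEG7 (-0.12), DEG15 (-0.08) and CLPC1 (-0.28) were not called. With 3 libraries a genotype, precision is limited by replicate spread more than by depth, except for LON4.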
